A study of Mus musculus with 2 samples.

Results

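Phosphatidylserine receptors and the soluble proteins that bridge them to apoptotic cells were followed here as 10 genes, chosen by name, of the 38293 genes in the deposited table. They are the TAM receptor kinases Axl, Mertk and Tyro3, the TAM ligands Gas6 and Pros1, the integrin bridge Mfge8, and the receptors Timd4, Stab1, Cd300lf and Havcr2. Each of the 10 names matched 1 row. The RNA came from lung resident macrophages of 8-week-old C57BL/6 mice, sorted by flow cytometry as CD45+CD11chiSiglecF+CD11blo cells 7 days after a subcutaneous dose of 625 third-stage larvae of Nippostrongylus brasiliensis, a roundworm that passes through the lung. The groups were Axl-/-Mertk-/- mice and WT mice, both infected, with 1 library each. The labels give neither the number of mice behind a library nor which part of Axl or Mertk is missing. With 1 library per genotype no difference had a replicate check and no p-value was computed.

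Cells that die by apoptosis expose phosphatidylserine, a lipid otherwise kept on the inner leaflet of the plasma membrane, and phagocytes recognise it before they engulf the cell. Some receptors bind the lipid directly, as those of the TIM, stabilin and CD300 families do. The TAM receptors bind it through Gas6 or protein S, whose gamma-carboxylated Gla domain holds the lipid while the other end of the protein engages the kinase receptor. Mfge8 binds the lipid and an integrin. Alveolar macrophages clear dying cells and surfactant from the airspace, and Axl and Mertk are the TAM receptors known from macrophages, whereas Tyro3 is best known from the nervous system.

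The 3 TAM receptors share a signature in the kinase domain, and the coding sequence around it is shown because it bears on how far reads of one receptor could be taken for another. The sequences were read from GENCODE vM21 transcripts on GRCm38, 5′ to 3′ in the direction of transcription, and capitals mark the 7 codons of the signature shared by the TAM kinase domains. The windows lie at chr7:25761411-25761491 on the minus strand for Axl, and on the plus strand at chr2:128793019-128793099 for Mertk and chr2:119812876-119812956 for Tyro3, each within 1 coding exon.
Axl: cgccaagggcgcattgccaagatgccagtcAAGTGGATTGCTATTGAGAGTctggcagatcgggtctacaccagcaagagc
Mertk: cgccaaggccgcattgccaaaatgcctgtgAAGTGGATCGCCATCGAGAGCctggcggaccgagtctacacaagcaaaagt
Tyro3: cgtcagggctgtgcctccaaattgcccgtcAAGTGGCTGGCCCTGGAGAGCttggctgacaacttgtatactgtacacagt
Over these 81 bases Axl and Mertk were identical at 82.7% of positions, Axl and Tyro3 at 58.0%, and Mertk and Tyro3 at 64.2%. Within the 21 bases of the signature, Axl and Mertk differed at 4 bases, Axl and Tyro3 at 6, and Mertk and Tyro3 at 4. Over whole coding sequences the identity was 51.3%, 54.2% and 49.7% for the same pairs, and the longest run of bases shared by the full transcripts of any pair was 14. No transcript of another gene matched Axl, Mertk or Tyro3 at 90% identity over 100 bases or more.

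The ligands carry the Gla domain that binds phosphatidylserine. The stretch that starts right after the propeptide is shown for both, with capitals on every glutamate codon, since glutamates of this domain are the residues that gamma-carboxylation modifies. The windows are spliced from 2 exons each, between chr8:13485678-13493956 (minus strand) for Gas6 and chr16:62885448-62888998 (plus strand) for Pros1.
Gas6: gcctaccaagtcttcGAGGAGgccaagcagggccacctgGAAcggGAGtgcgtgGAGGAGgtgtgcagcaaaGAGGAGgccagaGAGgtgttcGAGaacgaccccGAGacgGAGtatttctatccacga
Pros1: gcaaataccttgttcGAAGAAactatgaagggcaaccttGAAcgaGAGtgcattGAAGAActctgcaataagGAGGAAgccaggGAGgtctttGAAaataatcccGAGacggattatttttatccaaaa
Gas6 had 12 glutamate codons in these 129 bases and Pros1 had 11, and the stretches were identical at 70.5% of positions. Mfge8 binds integrins through an arginine-glycine-aspartate motif in an epidermal growth factor-like domain, shown in capitals at chr7:79145278-79145346 (minus strand).
Mfge8: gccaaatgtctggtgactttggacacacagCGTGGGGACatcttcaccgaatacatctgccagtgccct
The TIM receptors hold phosphatidylserine in a metal-dependent pocket, and capitals mark its asparagine and aspartate codons in Timd4 at chr11:46815703-46815762 and in Havcr2 at chr11:46456525-46456584, both on the plus strand.
Timd4: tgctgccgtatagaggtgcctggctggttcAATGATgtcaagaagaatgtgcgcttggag
Havcr2: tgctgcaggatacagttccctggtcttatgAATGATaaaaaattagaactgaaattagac
These TIM windows were identical at 56.7% of 60 bases, and the asparagine and aspartate codons were the same in both.

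The libraries held 15519680 reads assigned to genes in Axl-/-Mertk-/- and 15282882 in WT. Levels are given as the authors' normalised reads, where a single read stands for 1.18 in Axl-/-Mertk-/- and 1.21 in WT. Genes averaging 20 normalised reads or more are called measured, of which there were 11795, and a difference of size was a log2 ratio of at least 1.5-fold with 10 normalised reads added to both values. Ratios printed with an interval have nothing added, and the interval (exact, 95%) covers counting error only. All 15 alveolar macrophage markers were measured, with a summed level of 156170 normalised reads in Axl-/-Mertk-/- and 175744 in WT, and all 15 had a log2 ratio below 0 (median -0.25). The leading gene of each marker list is the one with the highest level per kilobase averaged over both libraries, which for alveolar macrophages was Ctsk, at 7793 normalised reads per kilobase in Axl-/-Mertk-/- and 10415 in WT. In Axl-/-Mertk-/- alone Itgax, at 8157 per kilobase, was above Ctsk, and none of the list was at 0 in either library. Markers of monocyte-derived and interstitial macrophages, led by Cd14, had a log2 ratio above 0 for 7 of 11 (median 0.23). Their sums were 29424 in Axl-/-Mertk-/- and 25127 in WT. This list joins different cells and went in both directions. Ly6c2, Plac8 and Cx3cr1 were at least 1.5-fold higher in Axl-/-Mertk-/-, and Folr2 was at least 1.5-fold lower. Endothelial markers, led by Pecam1, were above 0 for 8 of 8 (median 0.98), with sums of 1356 in Axl-/-Mertk-/- and 859 in WT. Of these, 7 were at least 1.5-fold higher in Axl-/-Mertk-/-, and Pecam1 was the exception. Red cell markers, led by Hbb-bs, were above 0 for 4 of 4 (median 1.06), with sums of 628 in Axl-/-Mertk-/- and 209 in WT. All 4 were at least 1.5-fold higher, where 1.74% of all measured genes were. The median log2 ratios of the other lists, each with its leading gene, were -0.19 for fibroblasts and smooth muscle (Acta2), -0.079 for epithelium (Scgb1a1), 0.24 for T and NK cells (Il7r), 0.13 for dendritic cells (Ccr7), -0.11 for B cells (Ighm), 0.045 for neutrophils (Mmp8) and -0.13 for eosinophils (Prg2). In Axl-/-Mertk-/- alone Tagln (35 per kilobase) was above Acta2 (27.4), and S100a9 (507) was above Mmp8. S100a9, the neutrophil marker more than 1.5-fold higher, had 264 normalised reads in Axl-/-Mertk-/- and 135 in WT. Their sums lay between 76.7 and 8923 in Axl-/-Mertk-/- and between 82.1 and 10203 in WT, and no marker of any list had 0 reads in both libraries. In a bulk sort, fewer cells of a type and less RNA per cell cannot be told apart.

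Of the 10 members, 9 were measured, and 2 of these were at least 1.5-fold lower in Axl-/-Mertk-/-, where 1.33% of all measured genes were. These were Axl and Mertk, the deleted genes. None was at least 1.5-fold higher, where 1.74% of all measured genes were. The remaining 7 measured members lay within 1.5-fold, as 96.9% of measured genes did. Their median log2 ratio was -0.20, with 6 of 7 below 0 (Havcr2, at -0.003, was above 0 under both other scalings), beside a median of -0.0047 over all measured genes, of which 51.2% were below 0. The median of -0.20 is the value of Timd4, which had 31 reads in Axl-/-Mertk-/- and 36 in WT. The counting intervals of Timd4, Pros1 and Havcr2, all among the 6 below 0, included 1. The member that did not reach the minimum was Tyro3. The counting interval of the ratio lay below 1 for 5 of the 9 measured members, beside 11.4% of all measured genes. These 5 include the deleted genes Axl and Mertk, and the others were Gas6, Mfge8 and Stab1, from the 7 remaining measured members. The interval lay above 1 for 1 member, beside 10.1% of all measured genes. Counting intervals are narrower for genes with more reads.

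**Figure D1:**
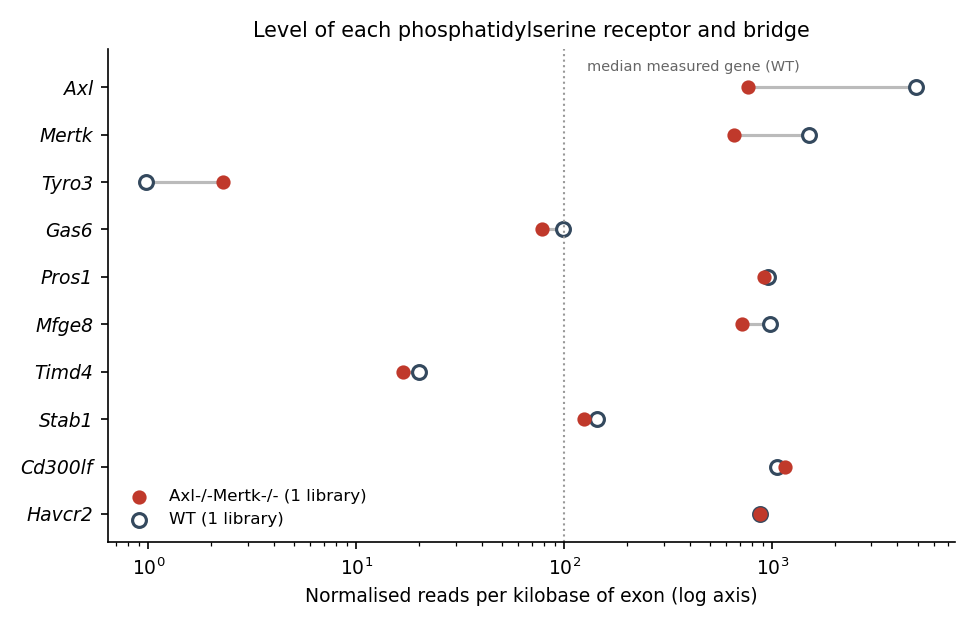
Level of each member in normalised reads per kilobase of annotated exon on a log axis, with a filled point for the Axl-/-Mertk-/- library and an open point for the WT library. Axl and Mertk are the members whose points lie far apart at a high level, whereas the pairs of Pros1 (914 in Axl-/-Mertk-/- and 952 in WT), Cd300lf (1151 in Axl-/-Mertk-/- and 1054 in WT) and Havcr2 (875 in Axl-/-Mertk-/- and 877 in WT) nearly coincide, and Tyro3 sits lowest in both libraries.

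Axl and Mertk had the highest levels per kilobase of annotated exon among the 7 receptors in WT, and both genes were lower in Axl-/-Mertk-/-. With the coding length in place of the exon length, Axl still led in WT, but Mertk came after Cd300lf and Havcr2. Axl (ENSMUSG00000002602, GRCm38 chromosome 7, 25757273 to 25788705, minus strand) had 3851 normalised reads in Axl-/-Mertk-/- and 24789.8 in WT. The ratio was 0.155 (0.150 to 0.161). Axl is the receptor that binds Gas6 and is known in mice as a resident receptor of airway macrophages. Mertk (ENSMUSG00000014361, chromosome 2, 128698956 to 128802894, plus strand), the receptor for both Gas6 and protein S, had 2842 normalised reads in Axl-/-Mertk-/- and 6484 in WT, a ratio of 0.438 (0.418 to 0.460). Both deleted genes were thus lower in the library labelled Axl-/-Mertk-/-, by different amounts, and neither was near 0. The ratio of Axl to Mertk reads was 1.35 in Axl-/-Mertk-/- and 3.82 in WT. This within-library comparison does not depend on scaling, and its odds ratio was 0.354 (0.333 to 0.377), so the share of WT reads still counted was smaller for Axl than for Mertk beyond counting error. The gene totals include reads from whatever exons were left in place and do not show whether a functional transcript was made. Gm14011, on the opposite strand within Mertk, had 0 reads in Axl-/-Mertk-/- and 5 in WT.

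Tyro3 (ENSMUSG00000027298, chromosome 2, 119797733 to 119818104), the remaining TAM receptor, was close to the detection limit in both libraries. It had 12 reads in Axl-/-Mertk-/- and 5 in WT, which is 14.2 normalised reads in Axl-/-Mertk-/- and 6.03 in WT. The ratio of 2.35 had an interval of 0.770 to 8.51, so a difference was not detectable at this depth. Per kilobase of exon the TAM receptors summed to 1423 normalised reads in Axl-/-Mertk-/- and 6422 in WT, or 22.2% of WT. Nearly all of the Axl-/-Mertk-/- sum came from reads still counted for the deleted genes Axl and Mertk. Tyro3 gave 0.211% of TAM receptor reads in Axl-/-Mertk-/- (exact interval 0.109% to 0.369%) and 0.0193% in WT (0.00626% to 0.0450%), shares that also move with the number of Axl and Mertk reads. Axl gave 57.4% of these reads in Axl-/-Mertk-/- (56.1% to 58.7%) and 79.3% in WT (78.8% to 79.7%).

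**Figure D2:**
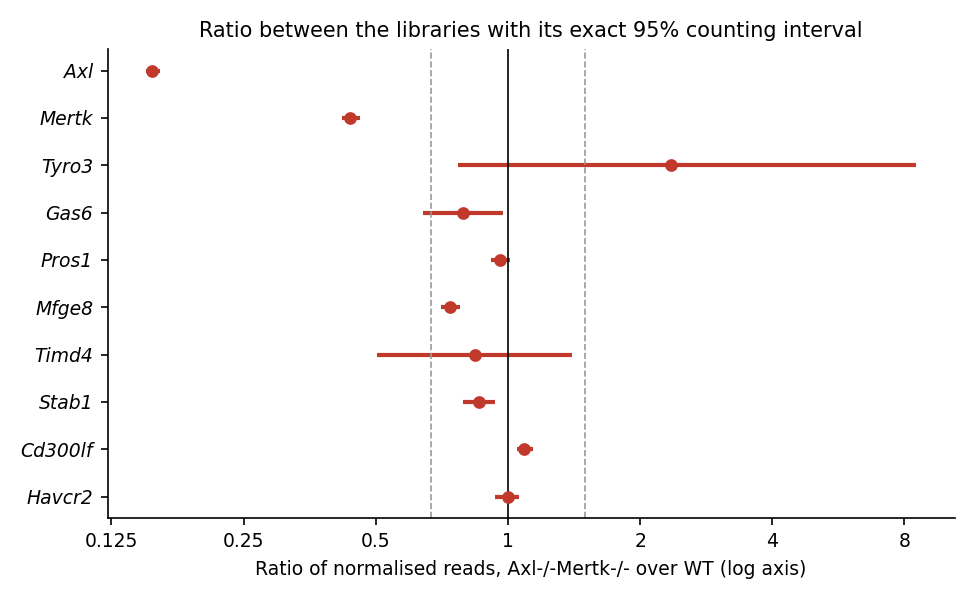
Ratio of normalised reads, Axl-/-Mertk-/- over WT, for each member on a log axis, with bars for the exact 95% counting interval and dashed lines at 1.5-fold lower and higher. Axl at 0.155 and Mertk at 0.438 are the points left of the dashed lines, and Mfge8 at 0.739 is the next lowest. Tyro3 at 2.35 is the point right of the dashed lines, with a bar from 0.770 to 8.51 that includes 1. The widest bars belong to Tyro3 and Timd4, the members with the fewest reads.

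All 3 bridging proteins had a ratio below 1, and none was 1.5-fold lower. Mfge8 (ENSMUSG00000030605, chromosome 7, 79133768 to 79149060), the integrin bridge also called lactadherin, had 3374 normalised reads in Axl-/-Mertk-/- and 4568 in WT. Its ratio was 0.739 (0.703 to 0.776), the lowest among the members outside the deleted pair, and 2.98% of measured genes had a lower log2 ratio. The 15 alveolar macrophage markers, all below 0 with log2 ratios of -0.46 to -0.033, had the same sign as Mfge8 (-0.44), and their part in this ratio was not tested. Gas6 (ENSMUSG00000031451, chromosome 8, 13465374 to 13494490), the ligand of all TAM receptors, had 198 normalised reads in Axl-/-Mertk-/- and 251 in WT, from 168 reads in Axl-/-Mertk-/- and 208 in WT. The ratio was 0.790 (0.641 to 0.973). Fibroblast and smooth muscle markers, cells that are another known source of Gas6, summed to 509 normalised reads in Axl-/-Mertk-/- and 558 in WT, and their part was not tested. Pros1 (ENSMUSG00000022912, chromosome 16, 62854307 to 62929346), which encodes protein S, the ligand of Mertk and Tyro3, had 3737 normalised reads in Axl-/-Mertk-/- and 3892 in WT. The interval of its ratio of 0.960 included 1 (0.914 to 1.01).

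The mixture of bridges was the same in kind in both libraries, with Pros1 and Mfge8 far above Gas6. Per kilobase of exon the level of Pros1 was 11.7 times that of Gas6 in Axl-/-Mertk-/- and 9.66 times in WT. The odds ratio of these reads between the libraries was 1.22 (0.981 to 1.51), an interval that includes 1. Mfge8 stood at 0.786 of the level of Pros1 per kilobase of exon in Axl-/-Mertk-/- and 1.02 in WT. Which of these genes was higher depends on the length used. With the longest transcript or the coding length, Mfge8 ranked above Pros1 in both libraries. The odds ratio of Mfge8 to Pros1 reads between the libraries does not depend on length. It was 0.769 (0.717 to 0.825), so Mfge8 was lower relative to Pros1 in Axl-/-Mertk-/- than in WT beyond counting error. For Mfge8 relative to Gas6 the odds ratio was 0.935 (0.755 to 1.16). Per kilobase the 3 bridges summed to 1711 normalised reads in Axl-/-Mertk-/- and 2024 in WT, or 84.5% of WT.

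Receptors that bind phosphatidylserine without a bridge showed no difference of 1.5-fold. Cd300lf (ENSMUSG00000047798, chromosome 11, 115116214 to 115133992), an immunoglobulin-like receptor with inhibitory motifs on myeloid cells, had 5925 normalised reads in Axl-/-Mertk-/- and 5425 in WT. Its ratio of 1.09 (1.05 to 1.14) was the only one above 1 among measured members. Cd300ld, a neighbouring gene of the same family, matched the Cd300lf transcript at 94.8% identity over 349 bases, so reads from that stretch are uncertain. Cd300ld had 1008 normalised reads in Axl-/-Mertk-/- and 1229.8 in WT, a ratio of 0.820 (0.748 to 0.899), and the reads of both genes together had a ratio of 1.04 (1.004 to 1.08). Havcr2 (ENSMUSG00000020399, chromosome 11, 46454935 to 46481255), which encodes the TIM family receptor TIM-3, was at 2381 normalised reads in Axl-/-Mertk-/- and 2386 in WT. The ratio was 0.998 (0.937 to 1.06).

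Stab1 (ENSMUSG00000042286, chromosome 14, 31139013 to 31168641), the scavenger receptor stabilin-1, had 1277 normalised reads in Axl-/-Mertk-/- and 1484 in WT, a ratio of 0.860 (0.792 to 0.934). Stab1 is also known from some endothelium, whose 8 markers all had log2 ratios above 0, opposite in sign to Stab1 (-0.22). The 15 alveolar macrophage markers were all below 0 (median -0.25), the same sign as Stab1. Markers of monocyte-derived and interstitial macrophages were below 0 for 4 of 11 and above 0 for 7. The part of any of these cells in the ratio of Stab1 was not tested. Its transcript overlaps that of Nt5dc2 on the other strand (98 reads in Axl-/-Mertk-/- and 78 in WT, 112 shared bases), and the strand setting of the counting is not given in the sources used here. Timd4 (ENSMUSG00000055546, chromosome 11, 46810800 to 46844332), the TIM-4 receptor of resident macrophages of the peritoneum and other tissues, was low, at 36.6 normalised reads in Axl-/-Mertk-/- and 43.4 in WT, from 31 reads in Axl-/-Mertk-/- and 36 in WT. Its ratio of 0.842 had an interval of 0.504 to 1.40, and a difference was not detectable at this depth. Together the 4 non-TAM receptors summed to 2167 normalised reads per kilobase in Axl-/-Mertk-/- and 2095 in WT, or 103% of WT. With the TAM receptors included, the 7 receptors summed to 3590 in Axl-/-Mertk-/- and 8517 in WT, or 42.1% of WT. The Axl-/-Mertk-/- sum includes 765 for Axl and 656 for Mertk, the deleted genes, whose reads do not show a functional transcript. The sums and percentages are for the exon length and change with the length used.

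**Figure D3:**
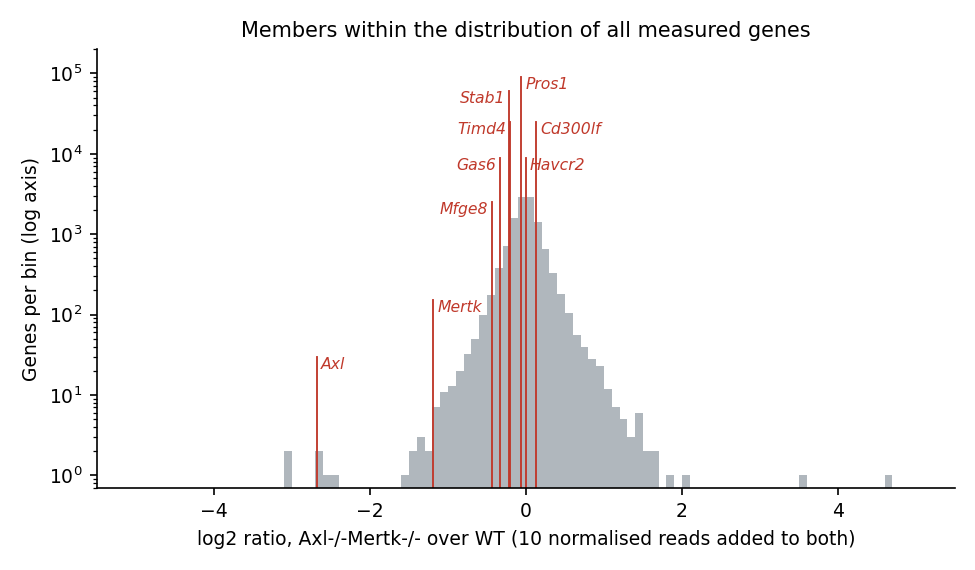
Distribution of the log2 ratio of Axl-/-Mertk-/- over WT, with 10 normalised reads added to both values, over all 11795 measured genes on a log count axis. Red lines place the 9 measured members, with Axl at -2.68 and Mertk at -1.19 in the lower tail and the other 7 between -0.44 and 0.13.

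Levels were compared between genes only per kilobase of exon. In Axl-/-Mertk-/- the order from high to low was Cd300lf (1151 normalised reads per kilobase), Pros1 (914), Havcr2 (875), Axl (765), Mfge8 (719), Mertk (656), Stab1 (124), Gas6 (77.8), Timd4 (16.8) and Tyro3 (2.29). In WT it was Axl (4925), Mertk (1495), Cd300lf (1054), Mfge8 (973), Pros1 (952), Havcr2 (877), Stab1 (144), Gas6 (98.5), Timd4 (20) and Tyro3 (0.974). Cd300lf thus headed the Axl-/-Mertk-/- library and Axl the WT library. Of neighbours in these orders, Pros1 and Havcr2 in Axl-/-Mertk-/- (ratio 1.04, 0.988 to 1.11) and Mfge8 and Pros1 in WT (1.02, 0.975 to 1.07) did not differ beyond counting error, and the others did. These comparisons hold for the exon length only, and Mfge8 ranked above Pros1 in both libraries with either other length. The Axl level in Axl-/-Mertk-/- exceeded that of 91.1% of measured genes, and the WT level that of 98.8%. Mertk exceeded 89.4% in Axl-/-Mertk-/- and 95.7% in WT. The lengths used are those of the intact genes, so the levels per kilobase of Axl and Mertk in Axl-/-Mertk-/- are averages that include any deleted exon. Gas6 lay near the middle of measured genes, above 43.6% in Axl-/-Mertk-/- and 49.7% in WT, and Timd4 above 12.9% in Axl-/-Mertk-/- and 15.2% in WT. The order among Axl, Mertk, Cd300lf, Havcr2, Pros1 and Mfge8 depends in part on the length used. In Axl-/-Mertk-/- Mfge8 ranked 2 with the longest transcript and 3 with the coding length, above Axl at 4 and 5, and Cd300lf ranked 1 with every length. In WT Axl ranked 1 with every length, whereas Cd300lf ranked 4 with the longest transcript and 2 with the coding length, and Mertk ranked 3 and 5.

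The wider pathway was nearly the same in both libraries. Its 13 lists held 120 genes found in the table, of which 104 were measured, 1 was at least 1.5-fold lower (0.962%) and 2 at least 1.5-fold higher (1.92%), close to the shares of 1.33% and 1.74% over all measured genes. The median log2 ratio was 0.012. The gene on the lower side was Thbs1, which encodes thrombospondin-1, a bridge to CD36 and integrins. It had 3503 normalised reads in Axl-/-Mertk-/- and 7931 in WT, a ratio of 0.442 (0.423 to 0.461). Thbs1 lies on chromosome 2 (118111876 to 118127133), 10.6 Mb from Mertk and so just past the edge of the 10 Mb window described at the end. It is nearer to Tyro3 (119797733 to 119818104), within 1 Mb of which 5 of 39 measured genes were lower and 3 higher. The part of this position in the ratio of Thbs1 was not tested. The genes on the higher side, Ager and Cd300e, were low and fell outside the naming rule, and are named because they were the only ones. Ager, which encodes RAGE and is also an epithelial marker, had 56.7 normalised reads in Axl-/-Mertk-/- and 33.8 in WT. Cd300e, an activating receptor of the CD300 family, had 64.9 in Axl-/-Mertk-/- and 32.6 in WT. Both were lost with a minimum mean of 100.

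Other phosphatidylserine receptors had a median log2 ratio of 0.11 over 7 measured of 10. Cd36, the fatty acid and thrombospondin receptor, had the highest level per kilobase of these, with 14662 normalised reads in Axl-/-Mertk-/- and 17002 in WT (ratio 0.862, 0.842 to 0.883). Trem2, a lipid receptor, had a ratio of 1.03 (0.976 to 1.08) and Cd300lb, an activating CD300 receptor, one of 1.08 (0.997 to 1.17). Adgrb1, the receptor BAI1, had no read (0 in each), which leaves room for a level of at most 3.54 in Axl-/-Mertk-/- and 3.62 in WT. Havcr1, the TIM-1 receptor, had 4 reads in Axl-/-Mertk-/- and 2 in WT, and Timd2 had 0 in both, so no TIM gene beside the members was measured. Of the CD300 family 7 of 11 were measured (median 0.20). The inhibitory receptor gene Cd300a had 2311 normalised reads in Axl-/-Mertk-/- and 1923 in WT (ratio 1.20, 1.12 to 1.29), and Cd300c2 had 1958 in Axl-/-Mertk-/- and 1669 in WT (1.17, 1.09 to 1.26).

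Other bridging molecules and TAM ligands had a median of -0.031 over 7 of 10. The complement genes C1qa and C1qb, whose product C1q coats apoptotic cells, both had a ratio of 1.10 (1.06 to 1.14), and C1qa was at 7372 normalised reads in Axl-/-Mertk-/- and 6708 in WT. Lgals3, which encodes galectin-3, a reported Mertk ligand, was at 37830.2 normalised reads in Axl-/-Mertk-/- and 38900.2 in WT, with a ratio of 0.972 (0.958 to 0.988). Integrins and co-receptors of uptake had a median of -0.017 over 7 genes. Itgb5, the partner of the alpha-v integrin that Mfge8 engages, was at 5114 normalised reads in Axl-/-Mertk-/- and 4188 in WT (ratio 1.22, 1.17 to 1.28). Lrp1, a large endocytic receptor, had a ratio of 0.902 (0.886 to 0.917) and the leukocyte integrin gene Itgb2 one of 0.958 (0.944 to 0.973).

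Genes that act after recognition had no member past 1.5-fold. Engulfment signalling had a median log2 ratio of 0.022 over 15 measured of 17, with ratios of 0.968 for the GTPase gene Rac1, 1.06 for Rhog and 1.02 for Cdc42. LC3-associated phagocytosis, in which the NADPH oxidase marks the phagosome, had a median of 0.030 over 11, with 1.11 for Cybb, 1.08 for Cyba and 1.01 for Atg5. TAM signalling partners and induced suppressors had a median of 0.011 over 12 of 14, with 5174 normalised reads in Axl-/-Mertk-/- and 5175 in WT for the adaptor Grb2, and ratios of 0.974 for the kinase Akt1 and 1.08 for Socs3, an inhibitor of cytokine signalling. Lipid sensors of engulfed cells had a median of -0.050 over 8, with 0.881 for Pparg, 0.946 for Rxra and 0.946 for the cholesterol exporter Abcg1. Pparg is also in the alveolar macrophage marker list.

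Genes that make, expose or process what the receptors see were likewise within 1.5-fold. Phosphatidylserine exposure and synthesis had a median log2 ratio of -0.036 over 11 genes, with ratios of 0.995 for Bsg and 0.975 for Nptn, partners of the scramblase Xkr8, and 0.926 for the flippase subunit Tmem30a. The list for gamma-carboxylation and secretion of vitamin K-dependent ligands had a median of -0.051 over 8, with 0.947 for the protease Furin, 0.946 for Calu and 1.01 for Aifm2, a reductase of vitamin K. Sheddases and their regulators had a median of 0.041 over 6 of 7. Adam10 had a ratio of 1.04 and Adam17, the protease that sheds Mertk, one of 1.02, and Adam9 was at 0.964. The do-not-eat-me pathway, which restrains uptake through CD47, had a median of 0.061 over 7, with 0.962 for Sirpa, 1.11 for the phosphatase gene Ptpn6 and 1.04 for the inhibitory receptor gene Pirb.

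**Figure D4:**
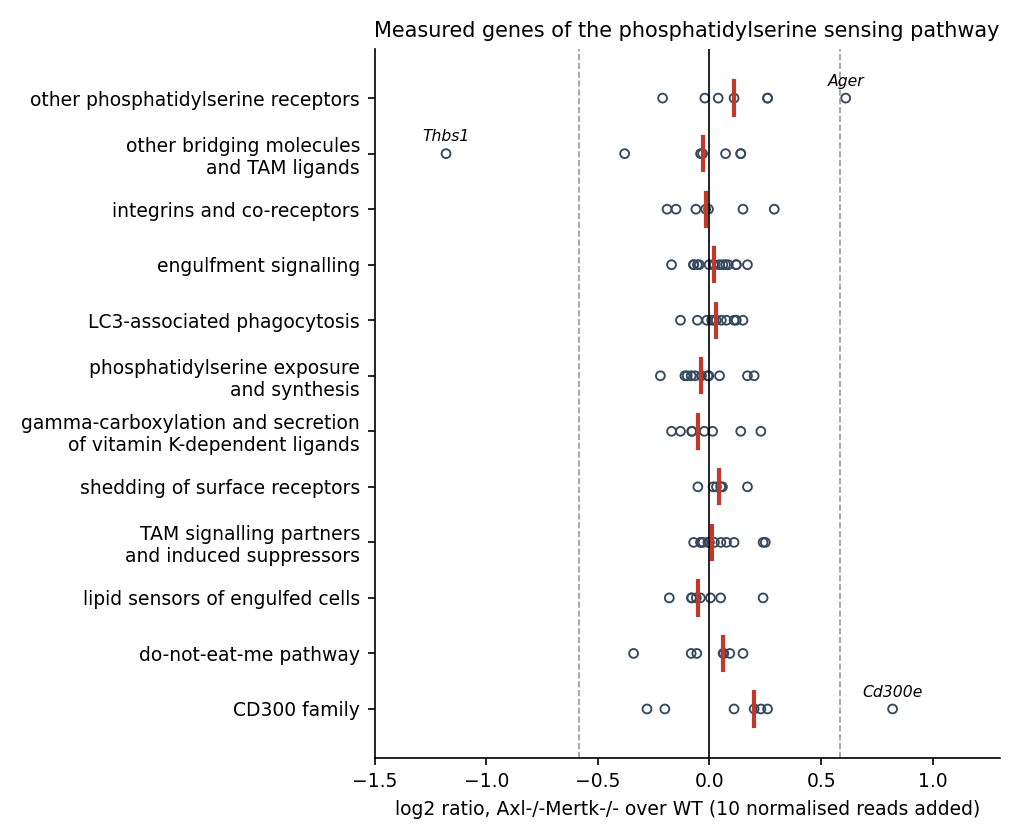
Log2 ratio of Axl-/-Mertk-/- over WT for each measured gene of 12 pathway lists (open points, 10 normalised reads added to both values), with a red bar at the list's median and dashed lines at 1.5-fold. Thbs1 is the point beyond the lower line, Ager and Cd300e are those beyond the upper line, and the medians lie between -0.051 and 0.20.

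The chromosomal surroundings of the members were examined because both deletions lie on chromosomes that carry other members. Around Axl, within 1 Mb, 27 other genes were measured, 0 were at least 1.5-fold lower and 1 was at least 1.5-fold higher (Pou2f2, 207 normalised reads in Axl-/-Mertk-/- and 122 in WT). Around Mertk there were 20, with 1 lower (Ckap2l, 380.1 in Axl-/-Mertk-/- and 981 in WT) and 0 higher. Around Tyro3, 8.88 Mb from Mertk, there were 39, with 5 lower and 3 higher, and the lowest of them was Spint1 at 131 in Axl-/-Mertk-/- and 1178 in WT. Tyro3 thus sat among genes with large ratios in both directions, at a level of its own too low to compare. Within 10 Mb, 6.67% of 165 genes around Mertk were lower and 5.45% higher, against 0.441% and 2.20% of 227 genes around Axl. The genes past 1.5-fold around Mertk include the 5 lower and 3 higher ones around Tyro3. Most of them lay on the side of Tyro3, from Slc30a4 (at -6.059 Mb from Mertk) outwards. Over all measured genes the shares were 1.33% and 1.74%. Around the other 7 members 0 to 1 genes within 1 Mb were lower and 0 to 2 higher. Mfge8 shares chromosome 7 with Axl at a distance of 53.3 Mb. Timd4 and Havcr2 lie 0.330 Mb from each other on chromosome 11, so their windows hold much the same genes. Pou2f2, Ckap2l, Spint1 and Slc30a4 were picked out once their values were known.

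**Figure D5:**
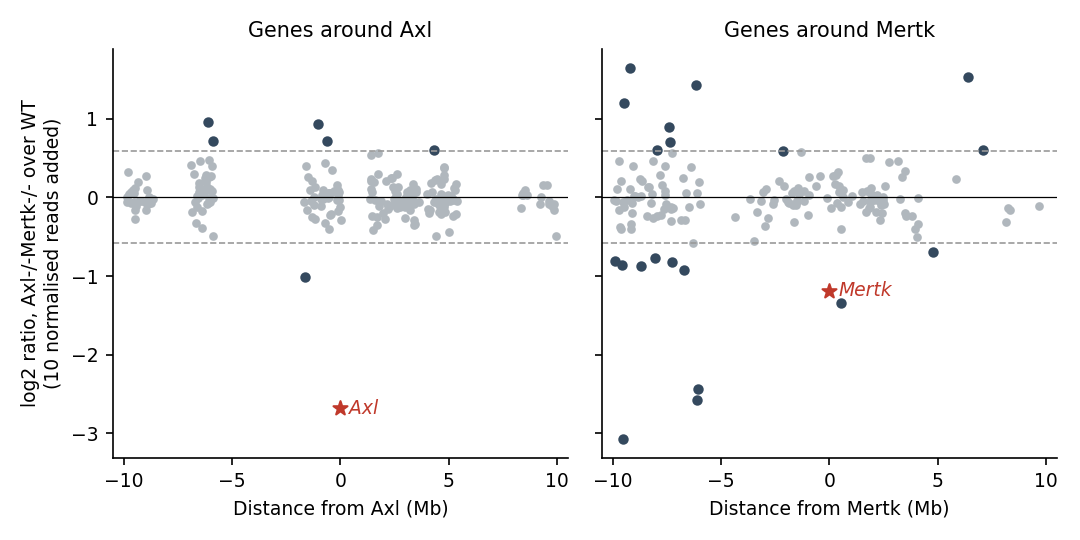
Log2 ratio of Axl-/-Mertk-/- over WT (10 normalised reads added to both values) of measured genes against their distance in Mb from Axl, left, and from Mertk, right. Stars are the deleted genes, dark points are genes past 1.5-fold (dashed lines), of which there are 6 of 227 around Axl and 20 of 165 around Mertk.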

How the data were processed

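The deposited table holds a normalised signal per gene. The submitters' processing notes name TopHat2, DESeq2 and GRCm38. The counter, its strand setting and program versions were not given in the sources used here. Dividing each column by its smallest step (1 read) gave whole numbers for 100% of values (tolerance 1e-06), so each library carries a single scaling factor. No quasi-likelihood fit in edgeR was possible on these reads, with 1 library per group and no residual degrees of freedom. As the count comparison, the exact interval of the ratio (Clopper-Pearson, 95%) excluded 1 for 2540 of 11795 measured genes, which compares these libraries and not the genotypes. PCR copies cannot be told from separate molecules here, so intervals and floors (3 reads) cover counting error only. Oligo-dT selection and dUTP strand marking were used per the labels' protocols. There were 0 columns of other samples.

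Gene positions, exon lengths and transcripts came from GENCODE vM21, in which 94.9% of identifiers were found (99.2% of measured ones). Near copies were searched with BLAST+ 2.17.0 (megablast, 90% identity, 100 bases). Other work used Python 3.11.15, SciPy 1.17.1, Biopython 1.88 and matplotlib 3.10.9. The fold rule and the interval were tested on data simulated with counting error only and with large planted differences. That test could not show how they behave with variation between mice, sorts or PCR copies, which was not simulated. Members and lists were chosen with earlier results of these data known. The text names all members, and from each pathway list the 3 genes most abundant per kilobase (mean of both libraries) and any gene past 1.5-fold with a mean of at least 50. From each marker list it names the gene most abundant by the same mean. Exceptions were added once values were known (Itgax, Tagln, S100a9, Ly6c2, Plac8, Cx3cr1, Folr2). Alternatives were other pseudocounts, scalings, minimum means, a fold of 2 and other lengths.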

Additional observations from a re-analysis of the deposited data

How the results depend on the processing

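All 40 recomputed log2 ratios of the members (other pseudocounts and other scalings) stayed within their counting intervals. This was a weak check. The scaling factors of Axl-/-Mertk-/- over WT had a ratio of 1.022 as reported, 1.011 by median of ratios and 1.015 by total reads. The log2 ratio of Tyro3 ran from 0.20 with a pseudocount of 50 to 1.11 with a pseudocount of 1, inside a wide interval. Axl and Mertk remained the 2 members at least 1.5-fold lower under every setting, also at 2-fold. The log2 ratio of Havcr2 was 0.012 with median-of-ratios factors and 0.0067 with scaling by total reads. With no minimum mean, 1 member (Tyro3) was counted as higher. The number of measured genes lower and higher over the whole table moved with the settings. It was 157 lower and 205 higher as reported, 247 and 296 with a pseudocount of 1, 58 and 58 with a pseudocount of 50, 366 and 458 with no minimum mean, 65 and 50 with a minimum mean of 100, and 32 and 41 at 2-fold. Of the pathway genes, 0 were higher with a pseudocount of 50, with a minimum mean of 100 and at 2-fold, and 2 were lower with no minimum mean. Median-of-ratios factors from these 2 libraries moved the median of all measured genes to 0.011, and scaling by total reads to 0.0049. Of 45 pairs of members, 41 in Axl-/-Mertk-/- and 43 in WT kept their order of level with the longest transcript as length, and 42 and 41 with the coding length. No paired analysis was possible because each genotype has 1 library, and no library could be left out for the same reason. Depth limits Tyro3 and Timd4, whose intervals span more than 2-fold.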
